A study of Homo sapiens with 4 samples.

Results

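The translation initiation, elongation and termination factors were compared between WT cells and ZCCHC4 KO1 cells. Members were all rows of the deposited expression table whose RefSeq symbol starts with EIF1 to EIF6 or with EEF1 or EEF2, or is ETF1, GSPT1 or GSPT2, which gave 69 of 16658 genes. Of these, 68 are protein-coding, among them the EIF2AK kinases and the enzymes that modify elongation factors, and 1, EIF5-DT, is a lncRNA. RNA was sequenced from untreated WT cells and untreated ZCCHC4 KO1 cells, with 2 libraries in each group and 4 in all. Both groups are labelled HepG2, a cell line from a human liver tumor. ZCCHC4 KO1, called KO1 from here on, is 1 of the knockout lines that were made with CRISPR/Cas9, so an effect of the knockout and a property of that line cannot be told apart. The labels do not say whether the 2 libraries of a group came from separate cultures, and the p-values then measure only the spread between these libraries, which may be technical.

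Protein synthesis starts when a small ribosomal subunit that carries eIF1, eIF1A, eIF3, eIF5 and the eIF2-bound initiator tRNA is recruited to the mRNA cap by the eIF4 factors and scans to the start codon. The eEF1 and eEF2 factors then bring aminoacyl-tRNAs and move the ribosome along, and eRF1 (ETF1) and eRF3 (GSPT1, GSPT2) release the finished chain. The kinases EIF2AK1 to EIF2AK4 phosphorylate eIF2 under stress, which slows initiation in general. ZCCHC4 itself methylates an adenosine of the large ribosomal RNA, a part of the ribosome on which these factors act.

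The values are FPKM as estimated by the authors, and they summed to between 512417 and 565199 per library. Since FPKM carries no read total, depth is unknown here, and counting error could not be computed. ZCCHC4, the targeted gene, was at 7.22 and 5.44 FPKM in WT, against 1.08 and 2.29 in KO1 (log2 fold change -1.48 with standard error 0.287; limma, adjusted p = 0.0448), a call that was lost without KO1 replicate 1 (adjusted p = 0.0514). Of 12 marker genes of hepatocytes, 7 had a row in the table, and none of the 7 exceeded 0.12 FPKM in any library, AFP and HNF4A included, so these defining markers of liver cells were at or near 0 in libraries with a liver cell line label. Fold changes below are on the log2(FPKM + 1) scale, which makes changes at low FPKM look smaller, and a call is an adjusted p below 0.05 from limma over all 10726 genes with an FPKM of at least 1 in at least 2 libraries. As the RNA is from bulk cells, fewer cells with a transcript and less of it per cell cannot be told apart.

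The replicates of a group differed in step with transcript GC content, and in opposite directions in the WT and KO1 groups. Of the 66 members tested, 32 were higher in WT replicate 1 than in replicate 2 and lower in KO1 replicate 1 than in replicate 2, and 30 went the opposite way in both groups, so that 93.9% deviated in opposite directions, against 81.4% of all genes tested. The median GC content was 40.5% in the first set and 49.8% in the second, against 41.8% and 57.1% for the same sets of all genes tested. EIF3A, the largest eIF3 subunit, shows the first pattern, with 50.6 and 27.4 FPKM in WT, against 33.8 and 57.8 in KO1. EEF1D, a subunit of the eEF1B exchange factor, shows the second, with 337 and 383 FPKM in WT, against 606 and 463 in KO1. Across the 66 members, which share the same 4 libraries, GC content and replicate 2 minus replicate 1 had a Spearman correlation of 0.745 for WT and -0.706 for KO1. Over all tested genes with a GC value it was 0.706 for WT and -0.764 for KO1, so the pattern was not particular to the members. In the plot of replicate differences against GC content, the WT points run from below 0 at the left to above 0 at the right, and the KO1 points run the other way.

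**Figure D1:**
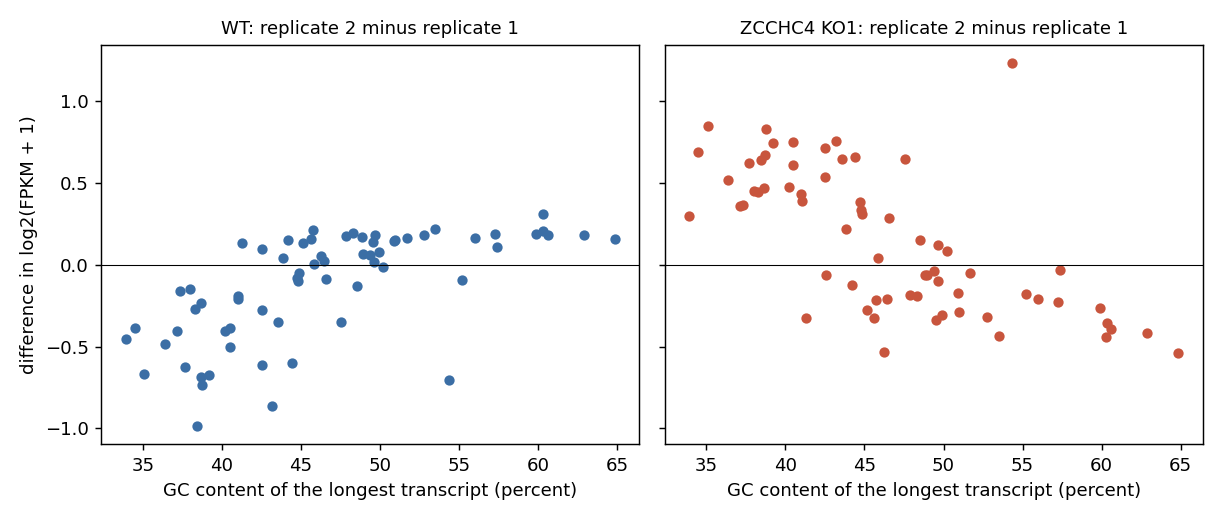
Difference in log2(FPKM + 1) between replicate 2 and replicate 1 (vertical axis) against the GC content of the longest transcript in percent (horizontal axis) for the 66 tested members, with WT at the left and KO1 at the right. The WT differences are mostly negative at low GC content and the KO1 differences mostly positive there, with Spearman correlations of 0.745 and -0.706.

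Many mRNAs of the translation machinery begin with a terminal oligopyrimidine tract, a C followed by a run of C and T, through which mTORC1 signalling controls their translation. The first bases of the members were therefore read from the RefSeq promoter windows of GRCh38.p14, which hold 250 bases before and 50 bases after an annotated start. Of the 69 members, 55 had a window. A run of at least 5 bases that starts with C at the annotated start and holds only C and T, searched on the transcribed strand, was found in 12 of the 55 members (21.8%) and in 7.79% of the 8827 tested genes with a window. Over all 35116 windows it was found in 4.07%. A match describes the letters at an annotated start, which may differ from the start used in these cells. The run, in capitals below, was not part of the rule for members and was chosen after seeing the data. The 12 members are shown from 15 bases before to 15 bases after the start, 5′ to 3′ on the transcribed strand. They are ordered from the lowest to the highest log2 fold change.
EIF2S3 (chrX:24054941-24054970, plus strand): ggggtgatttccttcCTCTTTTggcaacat
EIF2D (chr1:206612451-206612480, minus strand): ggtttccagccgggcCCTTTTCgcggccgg
EIF4B (chr12:53006441-53006470, plus strand): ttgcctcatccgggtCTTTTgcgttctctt
EEF1A1 (chr6:73521018-73521047, minus strand): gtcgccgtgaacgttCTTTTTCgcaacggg
EIF4A2 (chr3:186783562-186783591, plus strand): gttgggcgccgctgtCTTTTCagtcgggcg
EIF3D (chr22:36529152-36529181, minus strand): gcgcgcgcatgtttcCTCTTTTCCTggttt
EIF3M (chr11:32583816-32583845, plus strand): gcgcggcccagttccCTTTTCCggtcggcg
EEF2 (chr19:3985449-3985478, minus strand): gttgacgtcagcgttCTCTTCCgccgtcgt
EIF2A (chr3:150546772-150546801, plus strand): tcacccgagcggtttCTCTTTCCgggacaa
EIF3F (chr11:7987322-7987351, plus strand): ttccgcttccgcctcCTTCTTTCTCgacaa
EEF1B2 (chr2:206159880-206159909, plus strand): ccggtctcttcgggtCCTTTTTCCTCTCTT
EIF3K (chr19:38619173-38619202, plus strand): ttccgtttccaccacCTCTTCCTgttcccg
In EEF1B2 the run goes on for 1 base past the letters shown.

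As a group, the members were abundant and their middle lay close to no change. Their median FPKM over the 4 libraries was 49.96, against 10.9 for all genes tested, and 40.9% of the members tested were at 100 FPKM or more, against 8.53% of all genes tested. All members together made up 2.85% and 2.87% of the summed FPKM in WT and 2.85% and 2.92% in KO1. The median log2 fold change was 0.07 over the 66 members tested and -0.03 over all genes tested. Of the 66, 55 differed by less than 0.5 on the log2 scale in either direction, and 4 by more than 1. The shares of all genes tested within these limits were not counted. The interquartile range of the log2 fold change was -0.17 to 0.26 over the members and -0.29 to 0.21 over all genes tested.

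At an adjusted p below 0.05, 1 member was higher and 3 members were lower in KO1 cells. Over all genes tested 1.5% were called higher and 4.48% lower, and the corresponding shares of the members, 1.52% and 4.55%, were near this background. EEF1A2, which encodes the eEF1A form usual in muscle and neurons, rose. EIF2S3, which encodes the gamma subunit of eIF2, EIF3L, which encodes an outer subunit of eIF3, and EEF1AKMT1, which encodes a methyltransferase of eEF1A, fell. In the limma fit, at an adjusted p below 0.001 and 2-fold or more, 0 members were called in either direction. Of all genes tested, 0.0186% were called higher and 0.0559% lower by this rule. These cutoffs are the thresholds of the study, which names no test for this comparison. The paper reports many more changed genes at these cutoffs, so the limma counts do not show what its own test gave for the members. At an unadjusted p below 0.05 from limma 8 members were higher and 6 lower (12.1% and 9.09%, against 8.96% and 13.9% of all genes tested).

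Counted by non-overlap, both KO1 libraries were above both WT libraries in 20 members (30.3%) and below both in 13 (19.7%). Of all genes tested, 23.1% were apart upward and 28.5% downward. The members apart in each role group below are to be read beside these shares. The plot of fold changes by role shows the 4 called members away from the bulk of their groups.

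**Figure D2:**
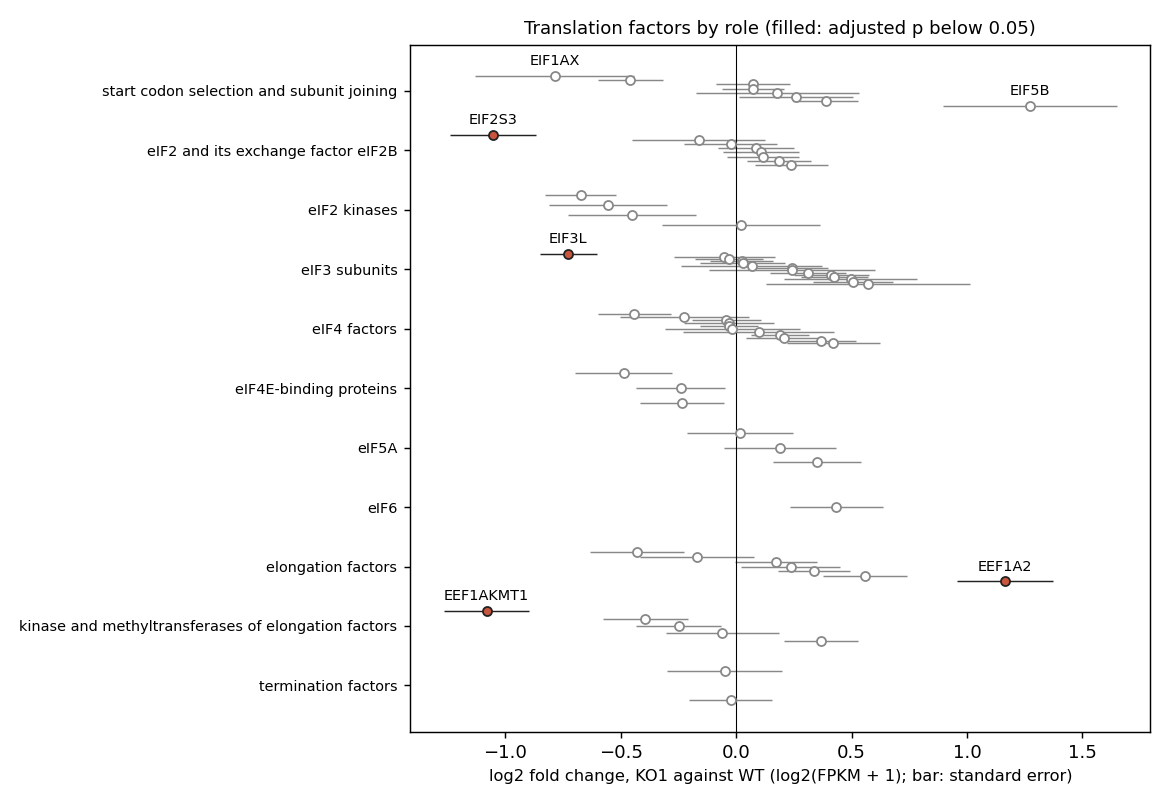
Log2 fold change of KO1 against WT on the log2(FPKM + 1) scale (horizontal axis, bars are standard errors) for the 66 tested members, grouped by role; filled points have an adjusted p below 0.05 from limma. EIF2S3 at -1.05, EIF3L at -0.73 and EEF1AKMT1 at -1.08 lie at the left and EEF1A2 at 1.17 lies at the right, with EIF1AX at -0.79 and EIF5B at 1.27 not called.

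In the role group named for start codon selection and subunit joining, 8 members were tested and none was called by limma. The group also holds EIF1AD, EIF2A and EIF2D, whose part in these steps was not examined. At an unadjusted p below 0.05 from limma, 2 of the 8 were higher and 1 was lower, against 8.96% and 13.9% of all genes tested. EIF1, which guards the choice of start codon, was the most abundant, with 295 and 300.2 FPKM in WT, against 419 and 363 in KO1. Both KO1 libraries were above both WT libraries for EIF1 (log2 fold change 0.39, standard error 0.141, adjusted p = 0.177 from limma). Its paralog EIF1B was at 31.6 and 33.95 FPKM in WT, against 35.3 and 33.8 in KO1, and the groups overlapped.
EIF5B, the GTPase that joins the large subunit, was at 15.8 and 7.46 FPKM in WT, against 22.1 and 34.9 in KO1. Its log2 fold change was 1.27 with a standard error of 0.376 (adjusted p = 0.116 from limma), so that this was the largest difference of any member but was not called, and the WT values differed from each other by more than 2-fold. With the trend on GC content removed from each library it passed (log2 fold change 1.33, adjusted p = 0.0086 from limma). That setting called 6.53% of all genes tested higher, against 1.5% in the main fit.
EIF1AX, the X-linked gene for eIF1A, was at 59.96 and 37.4 FPKM in WT, against 19.9 and 36.6 in KO1. The groups were apart by less than 1 FPKM, between WT replicate 2 and KO1 replicate 2, and the log2 fold change was -0.79 (standard error 0.343, adjusted p = 0.247 from limma). With the GC trend removed it was -0.82 and passed (adjusted p = 0.0162 from limma), in a setting that called 12.4% of all genes tested lower. EIF2D, which can deliver tRNA without eIF2, was at 45.4 and 50.7 FPKM in WT, against 36.2 and 33.1 in KO1 (log2 fold change -0.46, adjusted p = 0.126 from limma). EIF2A, EIF1AD and EIF5 had log2 fold changes between 0.07 and 0.26 and adjusted p-values of at least 0.601.

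eIF2 is built of 3 subunits, alpha (EIF2S1), beta (EIF2S2) and gamma (EIF2S3), and only the last of them was called. EIF2S3 was at 187 and 162 FPKM in WT, against 71.6 and 97.1 in KO1. Both KO1 libraries were far below both WT libraries, and the mean fell from 174 ± 17.9 to 84.3 ± 18.0 FPKM (SD, n = 2 each), a log2 fold change of -1.05 with a standard error of 0.185 (limma, adjusted p = 0.0345). EIF2S1 was at 41.0 and 33.9 FPKM in WT, against 31.3 and 42.97 in KO1, and EIF2S2 was at 67.5 and 44.2 in WT, against 38.6 and 61.5 in KO1, so that the groups overlapped for both.
Within a library, EIF2S3 stood at 4.56 and 4.77 times the FPKM of EIF2S1 in WT and at 2.29 and 2.26 times in KO1. The ratio of EIF2S1 to EIF2S2 was 0.608 and 0.767 in WT, against 0.811 and 0.699 in KO1. These ratios are given as values in each library, with no test. The 5 subunits of eIF2B, the exchange factor that recharges eIF2 with GTP, had log2 fold changes between 0.09 and 0.24, with adjusted p-values of at least 0.441 from limma. EIF2B3, of its catalytic part, and EIF2B4, of its regulatory part, were apart upward, while the other 3 overlapped.

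Of the 4 eIF2 kinases none was called by limma. Against 13.9% of all genes tested, 1 was lower at an unadjusted p below 0.05. That was EIF2AK1, the heme-regulated kinase and the most abundant of them, with 53.3 and 50.1 FPKM in WT, against 28.9 and 35.5 in KO1. Its mean was 51.7 ± 2.24 in WT and 32.2 ± 4.62 in KO1 (SD, n = 2 each), with a log2 fold change of -0.67 with a standard error of 0.155 (limma, adjusted p = 0.0676). It passed with the GC trend removed (log2 fold change -0.60, adjusted p = 0.0164 from limma), where 12.4% of all genes tested were called lower.
EIF2AK3, also known as PERK, the kinase of the endoplasmic reticulum, was at 4.52 and 3.55 FPKM in WT, against 1.83 and 3.11 in KO1 (log2 fold change -0.56, adjusted p = 0.271 from limma). EIF2AK4, also known as GCN2, which senses uncharged tRNA, was at 11.9 and 9.1 in WT, against 5.67 and 9.46 in KO1. EIF2AK2, also known as PKR, which binds double-stranded RNA, was at 10.7 and 6.3 in WT, against 6.24 and 11.1 in KO1. The groups were apart downward for EIF2AK1 and EIF2AK3 and overlapped for EIF2AK4 and EIF2AK2.

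eIF3 is the scaffold that holds the other factors on the small subunit. All 14 members of this group were tested, and 1 was called lower and none higher, against 4.48% and 1.5% of all genes tested. At an unadjusted p below 0.05 from limma 3 were higher and 1 was lower, against 8.96% and 13.9% of all genes tested. EIF3L was at 132 and 133 FPKM in WT, against 76.3 and 83.0 in KO1. The replicates of EIF3L lay close together in both groups, and its mean fell from 132 ± 0.955 to 79.7 ± 4.77 FPKM (SD, n = 2 each), a log2 fold change of -0.73 with a standard error of 0.125 (limma, adjusted p = 0.0319).
EIF3B, which carries the core of the scaffold with EIF3A, was at 207 and 232 FPKM in WT, against 317 and 274 in KO1. EIF3G was at 184 and 213 in WT, against 319 and 249 in KO1, and EIF3K, which binds EIF3L, was at 160 and 181 in WT, against 253 and 203 in KO1. For these 3 subunits both KO1 libraries were above both WT libraries, with log2 fold changes of 0.42, 0.51 and 0.41 and adjusted p-values of 0.158, 0.155 and 0.209 from limma. EIF3F and EIF3I were apart upward as well, at log2 fold changes of 0.24 and 0.31. Of all genes tested, 23.1% were apart upward.
The remaining 8 subunits overlapped between the groups. EIF3D, which can itself bind the cap, was at 129 and 143 FPKM in WT, against 147 and 130.2 in KO1. Relative to EIF3L in the same library, EIF3D stood at 0.98 and 1.08 in WT, against 1.92 and 1.57 in KO1, and EIF3B at 1.57 and 1.74 in WT, against 4.15 and 3.3 in KO1. These ratios were not tested, and with EIF3L as the denominator they repeat its lower values in KO1.
EIF3C, the most abundant subunit, was at 286 and 323 FPKM in WT, against 317 and 278 in KO1 (log2 fold change -0.03, standard error 0.146, adjusted p = 0.932 from limma). Its near-identical copy EIF3CL was at 20.5 and 12.1 in WT, against 15.3 and 37.2 in KO1, and since reads can be divided differently between the copies their separate values are uncertain. Their sum was 306 and 335 FPKM in WT, against 332 and 316 in KO1, and overlapped.
In order of mean FPKM in WT, EIF3C came first, then EIF3B, EIF3I, EIF3G and EIF3K, then EIF3M, EIF3H, EIF3D, EIF3L, EIF3F and EIF3E, then EIF3J, EIF3A and EIF3CL. From EIF3M to EIF3E the WT means ran from 141 to 108, and the ranges of neighbours in that order overlapped except those of EIF3L and EIF3F, which lay next to each other. In the plot of eIF3 subunits by library, EIF3L is the 1 subunit whose KO1 libraries both lie below its WT libraries.

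**Figure D3:**
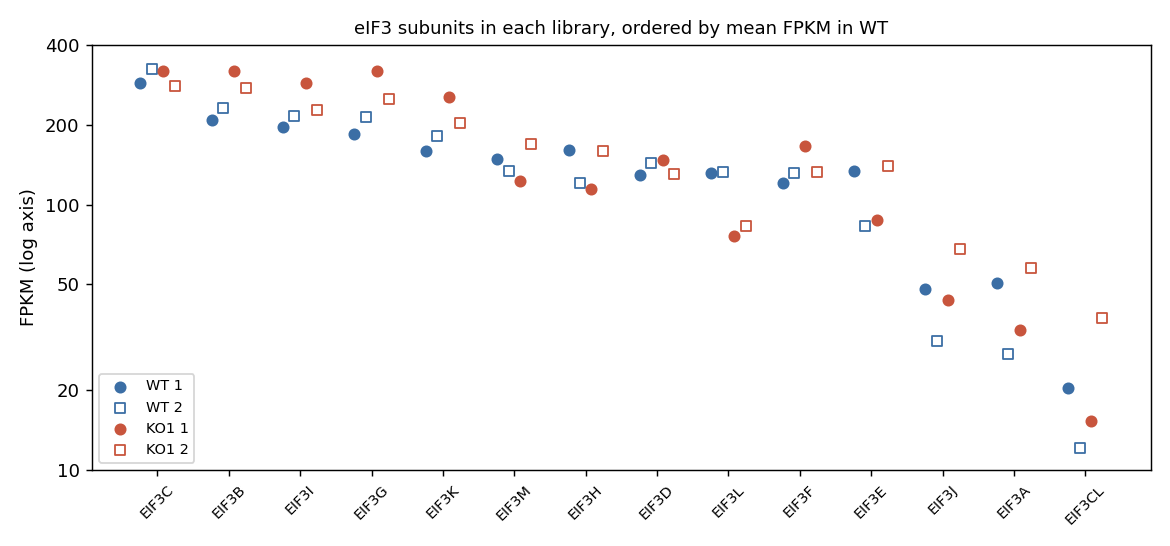
FPKM (vertical axis, logarithmic) of the 14 eIF3 members in each library, in order of the mean in WT; blue is WT, red is KO1, circles are replicate 1 and squares replicate 2. EIF3L drops from 132 and 133 to 76.3 and 83.0, EIF3B, EIF3G, EIF3I, EIF3K and EIF3F lie higher in both KO1 libraries, and the others overlap.

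Of the 11 tested eIF4 factors, which bind and unwind the capped end of the mRNA, none was called by limma. At an unadjusted p below 0.05 from limma 1 was higher and 1 lower, against 8.96% and 13.9% of all genes tested. EIF4A1, the main helicase, was the most abundant, at 1062 and 1204 FPKM in WT, against 1352 and 1262 in KO1 (log2 fold change 0.21, standard error 0.165, adjusted p = 0.526 from limma). Its paralog EIF4A2 was at 68.4 and 58.1 in WT, against 52.3 and 72.6 in KO1.
EIF4B, which stimulates the helicase, was at 208 and 194 FPKM in WT, against 131 and 166 in KO1, with both KO1 libraries below both WT libraries. Its log2 fold change was -0.44 (standard error 0.158, adjusted p = 0.171 from limma). EIF4A3, the helicase of the exon junction complex, was at 146 and 169 in WT, against 219 and 189 in KO1 (log2 fold change 0.37, adjusted p = 0.217 from limma).
The cap-binding protein EIF4E was at 17.9 and 13.5 FPKM in WT, against 10.1 and 16.9 in KO1. The scaffold EIF4G1 was at 192 and 207 in WT, against 229.9 and 225 in KO1, and EIF4G2, which acts without EIF4E, was at 282 and 198 in WT, against 180.0 and 303 in KO1. Apart from EIF4A1, EIF4A3 and EIF4G1, the groups were apart upward for EIF4E3, an eIF4E relative at 0.82 and 0.63 in WT, against 1.03 and 1.62 in KO1, which entered the test only through its KO1 values.

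The eIF4E-binding proteins block the cap complex when mTORC1 is inactive. EIF4EBP1 was by far the most abundant, at 282 and 319.8 FPKM in WT, against 294 and 220.4 in KO1, and the groups overlapped (log2 fold change -0.24, standard error 0.182, adjusted p = 0.516 from limma). It stood at 15.7 and 23.8 times the FPKM of EIF4E in WT and at 29.0 and 13.0 times in KO1. EIF4EBP2 was at 10.2 and 9.54 in WT, against 5.77 and 7.83 in KO1, and EIF4ENIF1, which carries eIF4E to the nucleus, at 5.0 and 5.72 in WT, against 4.47 and 4.28 in KO1. Both were apart downward without a call by limma, EIF4EBP2 at a log2 fold change of -0.49 with a standard error of 0.210 (limma, adjusted p = 0.241), and no member of this group reached an unadjusted p below 0.05. EIF4EBP3 was listed at 0.4 FPKM in WT replicate 1 and at 0 in the other libraries, and was not tested.

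EIF5A, the factor that carries hypusine and helps ribosomes over stretches of proline, was at 1579 and 1799 FPKM in WT, against 2326 and 1985 in KO1. The groups did not overlap (log2 fold change 0.35, standard error 0.189, adjusted p = 0.343 from limma). EIF5A2 was at 1.42 and 0.77 in WT, against 0.89 and 1.32 in KO1, and EIF5AL1, a copy similar enough to EIF5A for reads to be shared, was at 3.87 and 4.05 in WT, against 5.81 and 3.71 in KO1. EIF6, which keeps the large subunit from joining too early, was at 183 and 227 in WT, against 321 and 236 in KO1, apart upward (log2 fold change 0.43, standard error 0.201, adjusted p = 0.275 from limma).

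Among the 7 elongation factors, EEF1A1 and EEF1A2, which encode the same kind of protein, lay on opposite sides. EEF1A1 was the most abundant member of all, with 4017 and 4143 FPKM in WT, against 2807 and 3266 in KO1. Both KO1 libraries lay below both WT libraries, with means of 4080 ± 88.7 and 3037 ± 325 FPKM (SD, n = 2 each), and the log2 fold change of -0.43 (standard error 0.203) was not called (adjusted p = 0.283 from limma).
EEF1A2 was at 29.0 and 32.6 FPKM in WT, against 84.8 and 58.1 in KO1. Its mean rose from 30.8 ± 2.48 to 71.5 ± 18.9 FPKM (SD, n = 2 each), a log2 fold change of 1.17 with a standard error of 0.207 (limma, adjusted p = 0.0354). EEF1A2 made up 0.718% and 0.78% of the summed FPKM of both genes in WT and 2.93% and 1.75% in KO1. The sum itself was 4046 and 4175 FPKM in WT, against 2892 and 3325 in KO1, so the higher level of EEF1A2 was small beside the lower level of EEF1A1. EEF1A1 has many processed copies in the genome, among which reads could be divided differently.
The eEF1B subunits, which recharge eEF1A with GTP, were not called. EEF1D was the one of them with the smallest p (log2 fold change 0.56, adjusted p = 0.143 from limma), at the values given above. EEF1B2 was at 449 and 513 FPKM in WT, against 649 and 568 in KO1, and EEF1G was at 1211 and 1409 in WT, against 1790.3 and 1322 in KO1, so that the groups were apart for EEF1D and EEF1B2 and overlapped for EEF1G. EEF2, the translocase, was at 949 and 1081 in WT, against 1252 and 1044 in KO1 and overlapped. EEF1E1, a scaffold protein of the tRNA synthetase complex, was at 47.3 and 33.5 in WT, against 29.3 and 42.4 in KO1.

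The enzymes that modify elongation factors were at low levels, between 1.68 and 17.7 FPKM on average. EEF1AKMT1, which methylates a lysine of eEF1A, was at 6.86 and 6.88 FPKM in WT, against 2.67 and 2.77 in KO1. The replicates were nearly equal in both groups, and its mean fell from 6.87 ± 0.0141 to 2.72 ± 0.0707 FPKM (SD, n = 2 each), a log2 fold change of -1.08 with a standard error of 0.186 (limma, adjusted p = 0.0319).
EEF1AKMT3 was at 2.18 and 1.91 in WT, against 1.2 and 1.44 in KO1, and EEF2K, the kinase that inactivates eEF2, was at 6.76 and 6.7 in WT, against 5.32 and 5.7 in KO1. EEF2KMT, a methyltransferase of eEF2, was at 15.8 and 14.8 in WT, against 21.4 and 18.7 in KO1. The groups were apart downward for EEF1AKMT3 and EEF2K and upward for EEF2KMT, with adjusted p-values of 0.275, 0.496 and 0.247 from limma. EEF2KMT, the most abundant of them, had a log2 fold change of 0.37 (standard error 0.160). EEF1AKMT2 overlapped.
The termination factors ETF1 and GSPT1 overlapped between the groups. ETF1 was at 70.3 and 54.9 FPKM in WT, against 47.8 and 75.4 in KO1, and GSPT1 at 60.1 and 52.4 in WT, against 48.0 and 63.3 in KO1, and neither reached an unadjusted p below 0.05 with limma. The log2 fold change of ETF1 was -0.05 (standard error 0.249, adjusted p = 0.939 from limma). GSPT2 was at 0.02 or 0 FPKM in every library and EIF5-DT did not exceed 0.63, and neither was tested.

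**Figure D4:**
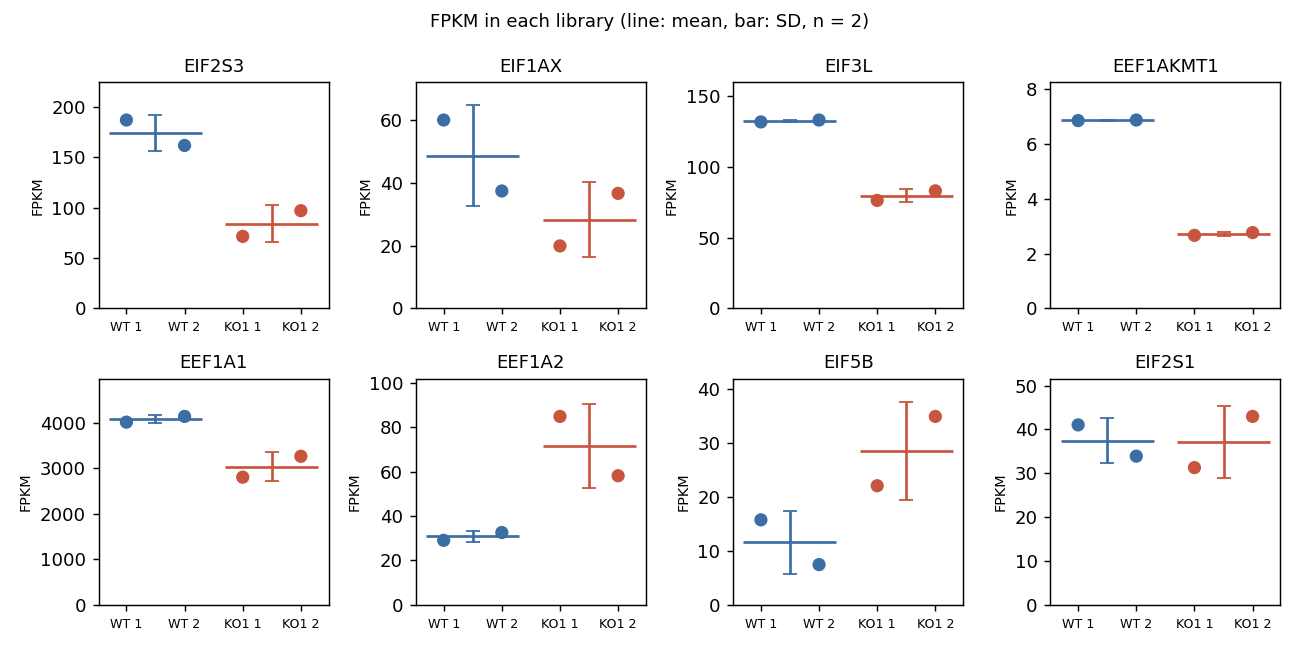
FPKM (vertical axes, from 0) of 8 members in the 4 libraries (WT blue, KO1 red), with lines for the means and bars for the SD (n = 2). EIF2S3, EIF3L and EEF1AKMT1 are lower and EEF1A2 is higher in both KO1 libraries, EIF1AX and EIF5B are apart with wide spread, EEF1A1 is at 4017 and 4143 against 2807 and 3266, and EIF2S1 overlaps.

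The members lie on 20 chromosomes, and some lie where neighbouring genes differed as well. For each tested member, the log2 fold changes of the 20 nearest tested genes on its chromosome were taken. EIF2S3 (chrX:24054956-24078810) and EIF1AX (chrX:20124525-20141838) both lie on the short arm of the X chromosome. Of the 20 genes nearest to each, which can be shared between the sets, 20 were lower in KO1, with medians of -0.91 around EIF2S3 and -0.90 around EIF1AX. The log2 fold changes of the members themselves were -1.05 and -0.79, and the part of the region in them was not tested. Around EIF4EBP1 on chromosome 8, 20 of 20 neighbours were lower as well, with a median of -0.62, against -0.24 for EIF4EBP1.
EIF5B (chr2:99337389-99401326) lay among the neighbours with the highest median of all members, 0.41, with 16 of 20 higher. The neighbours of EEF1A2 (chr20:63488014-63499083) had a median of -0.17, opposite to EEF1A2, with 16 of 20 lower. Those of EIF3L (chr22:37849419-37889407) had a median of -0.28, and those of EEF1AKMT1 (chr13:20728731-20773961) a median of -0.29, with 13 and 15 of 20 lower. Over all tested members the median of the neighbours was 0.01. The plot of members against their neighbours sets EIF2S3 and EIF1AX apart at the lower left.

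The 12 members with a pyrimidine run at their start, whose sequences are given above, did not move one way. EIF2S3, EIF2D, EIF4B and EEF1A1 were apart downward, EIF3F, EEF1B2 and EIF3K were apart upward, and EIF4A2, EIF3D, EIF3M, EEF2 and EIF2A overlapped. Their median log2 fold change was 0.03, against 0.08 for the members with a window and no run. Over the tested genes of the whole table the medians were -0.04 with and -0.02 without such a run. Of all genes tested, 28.5% were apart downward and 23.1% upward.

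The genes that act next to these factors were compared through 5 lists with 58 genes, of which 56 were tested. None was called higher by limma and 1 was called lower, against 1.5% and 4.48% of all genes tested. At an unadjusted p below 0.05, 6 were higher and 2 lower, against 8.96% and 13.9% of all genes tested. The called gene was GTPBP2, a GTPase of ribosome rescue, whose FPKM fell from 19.9 and 22.3 in WT to 11 and 10.62 in KO1 (log2 fold change -0.90, standard error 0.162, adjusted p = 0.0365 from limma), and this call was lost without WT replicate 1 or WT replicate 2. Of the 8 genes of ribosome recycling and rescue, ZNF598, which marks collided ribosomes, had the next smallest p, at 36.0 and 35.8 FPKM in WT, against 60.1 and 51.4 in KO1 (adjusted p = 0.068 from limma).
Hypusine and diphthamide are modifications found on eIF5A and eEF2. None of the 9 genes for their synthesis was called. At an unadjusted p below 0.05 from limma 4 were higher, against 8.96% of all genes tested. By non-overlap 5 were apart upward and 1, DPH6, downward (log2 fold change -0.30), against 23.1% and 28.5% of all genes tested. DHPS overlapped between the groups (log2 fold change 0.06). With the GC trend removed 4 were called higher, against 6.53%. DOHH, which completes hypusine, was at 18.35 and 20.03 FPKM in WT, against 36.9 and 29.4 in KO1 (log2 fold change 0.75, adjusted p = 0.0645 from limma). DPH2 and DPH7, of the diphthamide pathway, had log2 fold changes of 0.70 and 0.70 and adjusted p-values of 0.0721 and 0.0708 from limma. The transcripts of DOHH, DPH2 and DPH7 have GC contents of 68.5%, 57.3% and 55.1%, and KO1 replicate 1 was the higher of its group for each. With the GC trend removed their log2 fold changes were 0.58, 0.62 and 0.64 and all 3 passed (adjusted p = 0.0161, 0.0134 and 0.0157 from limma), as did DPH1 (log2 fold change 0.38, adjusted p = 0.0449).
PPP1R15A, also known as GADD34, which directs the phosphatase to eIF2, was at 15.14 and 15.01 FPKM in WT, against 30.9 and 24.1 in KO1 (log2 fold change 0.82, standard error 0.176, adjusted p = 0.0579 from limma). The other 9 genes of eIF2 dephosphorylation and reinitiation had no unadjusted p below 0.05. Of 18 tested genes for poly(A)-binding proteins and mTORC1 signalling none was called and 1, PAIP2, was lower at an unadjusted p below 0.05 from limma (log2 fold change -0.59, adjusted p = 0.149). Of the 11 mitochondrial translation factors none was called and none had an unadjusted p below 0.05 with limma, and their log2 fold changes ran from -0.27 to 0.32.

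With the trend on GC content removed from each library, 9 members (13.6%) were called higher and 7 (10.6%) lower by limma, against 6.53% and 12.4% of all genes tested. The 9 were EIF1, EIF5B, EIF3B, EIF3G, EIF3J, EIF3K, EEF1A2, EEF1B2 and EEF1D, and the 7 were EIF1AX, EIF2S3, EIF2AK1, EIF3L, EIF4B, EIF4EBP1 and EEF1AKMT1. By fold alone, 4 members were at least 1.5-fold higher and 7 lower in mean FPKM, against 7.39% and 14% of all genes tested. With a crossed pairing of the libraries, chosen after seeing the data, 20 members were called higher and 13 lower by limma, against 21.5% and 27.8% of all genes tested.
The calls of EIF3L and EEF1AKMT1 were lost without WT replicate 1 (adjusted p = 0.231 and 0.208 from limma) and without WT replicate 2 (0.223 and 0.165), and that of EEF1AKMT1 also without KO1 replicate 1 (0.0514). With the replicate number as a block both were lost as well (adjusted p = 0.116 and 0.128 from limma), as they were with no filter on FPKM (0.0581 and 0.081), and EIF3L also with median-ratio scaling (0.0887) and with eBayes without a trend (0.0636). With the replicate block and without either WT replicate, the spread came from the shrinkage over genes alone. The same held for the crossed pairing and for the replicate block with the GC trend removed. A gene's own spread, small for EIF3L and EEF1AKMT1, did not count there. Without either KO1 replicate the spread came from the WT group and from the shrinkage over genes. With a library left out its group has 1 sample, which is assumed to vary like the other group. In these fits EIF2S3 and EEF1A2 were called each time, which is no independent check of their spread. They were not called with no filter on FPKM (adjusted p = 0.0897 and 0.0922 from limma) or with eBayes without a trend (0.0541 and 0.0513). Over the alternatives the log2 fold change ranged from -1.27 to -0.84 for EIF2S3, from -0.79 to -0.65 for EIF3L, from -1.31 to -0.96 for EEF1AKMT1 and from 0.90 to 1.43 for EEF1A2.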

How the data were processed

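RNA from 2 WT libraries and 2 ZCCHC4 KO1 libraries was compared. Per the paper's supplement, the authors aligned reads to GRCh38 with Bowtie2 and estimated expression with RSEM. They deposited FPKM values, fragments scaled by transcript length and mapped fragments, for 16658 genes under Entrez identifiers. Versions, annotation and filters are not given in the sources used here. The supplement names BGISEQ-500 and the labels an Illumina HiSeq. The 4 columns carry the sample titles.

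RefSeq symbols (GRCh38.p14) were found for 16384 genes. Genes with FPKM of at least 1 in at least 2 libraries (10726) entered a limma fit of log2(FPKM + 1) (limma 3.58.1, R 4.3.3; lmFit, eBayes with a trend, Benjamini-Hochberg adjustment over all genes tested). No count model was applied to FPKM. The code was tested on simulated data. GC content is that of the longest GENCODE v44 transcript, with a value for 98.4% of tested genes. The study names no test for this comparison. The members, role groups and lists were chosen with earlier results of these data known. Every member could be named; full statistics were given for called members and, in each role group, for the most abundant member and the one with the smallest p, and further ones were chosen after their values were seen. The pyrimidine run at the start was likewise chosen after seeing the data.

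The alternatives were another pseudocount (0.1), no filter, a minimum FPKM of 5, quantile normalization, the replicate number as a block, median-ratio scaling, eBayes with no trend, removal of the GC trend (natural spline, 4 degrees of freedom) with and without the block, other call rules and leaving out each library. A crossed pairing was added after seeing the data.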

Additional observations from a re-analysis of the deposited data

How the results depend on the processing

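Each group had 2 libraries of unknown depth, which limits precision. Counts of called members depended on the processing. The 4 called members kept their direction under all 14 refitted alternatives, but most of these could not have changed it. Another filter, eBayes without a trend or a block leaves the log2 fold change as it is. Groups that do not overlap keep their sign at another pseudocount or when a library is left out. Against 1 higher and 3 lower members there were 0 and 0 with no filter on FPKM (8 higher and 6 lower at an unadjusted p below 0.05 with the filter), 6 and 5 after quantile normalization, 2 and 2 after median-ratio scaling, 0 and 1 with eBayes without a trend, 9 and 7 with the GC trend removed, 0 and 0 at the thresholds of the study, and 4 and 7 at 1.5-fold without a test. They were 1 and 3 at a pseudocount of 0.1 and at a minimum FPKM of 5. Leaving out each library in turn gave from 1 to 5 higher and from 1 to 6 lower, the most without KO1 replicate 2. The cause was not tested. The thresholds of the study were applied to the limma fit and not to the study's own test, which is not named. Shares of all genes tested are given above for the main rule, the unadjusted p, the GC trend removed, the crossed pairing, the thresholds of the study and the 1.5-fold rule. For the other settings, here and below, such shares were not counted. Whether those counts are particular to the members or to the other translation genes is therefore unknown.

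The 2 groups share only replicate numbers, and the differences between replicates had a Pearson correlation of -0.787 across genes. The replicate block gave 2 higher and 1 lower members, or 6 and 5 once the GC trend was removed too. With a crossed replicate block, chosen after seeing the data, 20 were higher and 13 lower. In all of these block fits a gene's own spread did not count. For the other translation genes the counts were 0 higher and 0 lower under the replicate block, 4 and 2 once the GC trend was removed too, and 14 and 5 under the crossed replicate block.

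Otherwise, of the other translation genes, against 0 higher and 1 lower, 0 and 0 were called with no filter and at the thresholds of the study, 1 and 1 with a minimum FPKM of 5, 5 and 1 after quantile normalization, 4 and 1 after median-ratio scaling and 6 and 2 with the GC trend removed. Leaving out each library gave from 0 to 6 higher and from 0 to 2 lower. The median log2 fold change of the members ranged from -0.040, without KO1 replicate 2, to 0.157. Median-ratio scaling moved the median of all genes from -0.029 to 0.038. ZCCHC4 was not called at a pseudocount of 0.1, where its log2 fold change was -1.923, or without the filter, at -1.476 (adjusted p = 0.0551 and 0.115 from limma), and ranged from -1.807 to -1.145 over the libraries left out, the latter without KO1 replicate 1 (adjusted p = 0.0514).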
